A study of Solanum lycopersicum with 40 samples.

Results

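The 4 tomato genes described here are SPS, sus3, hxk1 and GolS-1, which encode a sucrose phosphate synthase, a sucrose synthase, a hexokinase and a galactinol synthase. They were found on the array by their symbol or a synonym in the platform's annotation, and 1 probe set matched each of them (4 of 802 genes with a symbol). The probe sets are Les.3522.1.S1_at for SPS, Les.157.1.S1_at for sus3, Les.3815.1.S1_at for hxk1 and Les.3696.1.S1_at for GolS-1. The members were chosen by readouts of these same arrays: SPS and sus3 stood out for their difference between transgenic lines and controls in fruit, and hxk1 for its difference in leaf. For GolS-1 the value behind the choice is not stated, and fruit is the tissue in which it was measurable. The differences between lines and controls in fruit and leaf are therefore given as descriptions, with no test.

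Sucrose is the main form in which tomato plants move carbon out of leaves and into fruits and roots. Sucrose phosphate synthase joins fructose phosphate to the glucose of UDP-glucose on the way to sucrose, and sucrose synthase splits sucrose into fructose and UDP-glucose. Hexokinase adds a phosphate to free glucose and fructose, and a hexokinase of Arabidopsis is also known as a glucose sensor. Galactinol synthase transfers galactose to myo-inositol, which is the entry step to the raffinose sugars and is known for its response to drought, heat and cold.

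RNA came from the dwarf cultivar Micro-Tom. The transgenic lines N6 and N7 express a gene called InsP 5-ptase, whose product removes a phosphate from inositol phosphates, and the controls were a vector control (VC) and wild type (WT). Ripe fruit (4 arrays per genotype) came from plants kept 9 weeks in pots in a growth chamber, and the first leaves of seedlings in vitro (3 per genotype) came from light-grown plants of 10 days. Root tips (3 per genotype) came from 10-day seedlings that are described as etiolated, while the growth text repeats that of the light-grown leaves, and 1 label field calls all root tips wild type. The promoter of the transgene, the plants behind each array and how the lines were derived were not given in the sources used here, and the introduced gene was not analysed here. Fruit replicates are called biological. For leaves and root tips the labels do not say so, and a p-value there covers no more than the variation among these arrays, part of which may come from the technique.

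Each value is an array signal on a linear scale, and signals under 50, where each array has a trimmed mean of 500, were set to that floor before log2 was taken. A signal is per probe set, so the level of 1 gene is compared between samples and not with that of another gene. Fewer cells of a type and less RNA per cell cannot be told apart in such samples. Arrays of a genotype and tissue correlated at 0.93 to 0.996 across probe sets. Signals of reporter probe sets differed within the fruit label VC and between the lines. Which genotypes should carry these sequences is not stated here, so they leave the fruit labels in doubt without settling them. Reporter M62653 had signals of 2220, 2210, 4420 and 1200 in fruit labelled WT and of 5160 in fruit labelled VC 4, and at most 51.0 on the other fruit arrays. Reporter A06498 lay at 237 to 336 in fruit labelled N7, but at 4.76 to 20.3 in fruit labelled N6 and at 2.28 to 24.5 in the fruit controls. Fruit arrays WT 3 and VC 4 also stood apart from the 6 other fruit controls, with correlations of 0.919 to 0.961 to them against 0.982 to 0.995 among the 6. All fruit values below belong to libraries as labelled, and the differences from the fruit controls are given with all arrays and without WT 3 and VC 4.

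Sums of marker genes fitted the labelled tissues. Summed over 7 genes of green cells, control arrays had 44380 to 82054 in leaf, 2797 to 5401 in fruit and 113 to 184 in root tips. On control arrays the sum over 9 markers of ripe fruit was 34240 to 54272 in fruit. It was 363 to 499 in leaf and 2456 to 5087 in root tips. The sum over 7 root markers was 12195 to 17341 in root tips, 1448 to 2703 in fruit and 1065 to 1311 in leaf. Of the root markers, FRO1 went the other way, with 0.991 to 18.7 in control root tips and 34.5 to 77.7 in control leaf. The 1 seed marker on the array was under the floor everywhere. In fruit the green-cell sum moved with the genotypes and did not overlap, with 551 to 1113 in the lines and 2797 to 5401 in the controls. The sum of the 9 ripe-fruit markers overlapped, with 30248 to 44742 in the lines and 34240 to 54272 in the controls. Of these markers, the polygalacturonase gene PG2 did not overlap, with 1800 to 4780 in the lines and 5690 to 10500 in the controls. The other ripe-fruit markers overlapped. Medians of RIN, EXP1 and TBG4 were higher in the lines (2970, 5000 and 552 against 2580, 4390 and 412). Those of ACS2, ACS4, ADH2, E8 and Psy1 were lower in the lines. Log2 ratios of the 3' to the 5' probe sets of control transcripts, a sign of RNA quality, were 2.88 to 4.04 in fruit of the lines and 2.67 to 4.52 in fruit of the controls. The part of green tissue, ripeness and RNA quality in the fruit differences below was not tested.

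Across the control tissues the 4 genes had different orders. SPS was highest in fruit, intermediate in leaf and lowest in root tips. Its signal averaged 2710 ± 309 in control fruit (SD, n = 8), 585 ± 117 in control leaf (n = 6) and 244 ± 63.1 in control root tips (n = 6). The fruit signal was 4.69-fold that of leaf (log2 difference 2.23 ± 0.16 SE, limma adjusted p = 5.49e-14) and 11.4-fold that of root tips (3.51 ± 0.16, adjusted p = 2.81e-19). Leaf exceeded root tips 2.43-fold (1.28 ± 0.18, adjusted p = 9.03e-08).

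The sucrose synthase gene sus3 was highest in root tips and lowest in leaf. Control arrays averaged 2761 ± 328 in fruit (SD, n = 8), 553 ± 70.0 in leaf (n = 6) and 5100 ± 680 in root tips (n = 6). Fruit was 4.99-fold above leaf (2.32 ± 0.09, adjusted p = 5.79e-22) and 1.84-fold below root tips (-0.88 ± 0.09, adjusted p = 8.94e-11). Leaf was 9.20-fold below root tips (-3.20 ± 0.09, adjusted p = 3.40e-25).

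For hxk1 the order was the reverse of that of SPS, with root tips highest and fruit lowest. Control arrays averaged 243 ± 71.7 in fruit, 989 ± 141 in leaf and 2318 ± 86.9 in root tips (SD, n = 8, 6 and 6). Fruit was 4.19-fold below leaf (-2.07 ± 0.15, adjusted p = 4.37e-14) and 9.89-fold below root tips (-3.31 ± 0.15, adjusted p = 1.44e-19). Leaf was 2.36-fold below root tips (-1.24 ± 0.16, adjusted p = 3.38e-08).

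GolS-1 was above the floor in fruit and under it on all 12 leaf arrays and all 12 root tip arrays. Control fruit averaged 992 ± 410 (SD, n = 8), or 1183 ± 238 without WT 3 and VC 4 (n = 6). Signals of 5.28 to 21.0 in control leaf and 0.456 to 10.8 in control root tips are below the floor and have no order. Fruit of the controls was at least 17.9-fold above leaf and at least 17.9-fold above root tips (log2 difference at least 4.16 for each). These differences are given as descriptions with no p. Fruit alone carried GolS-1 past the filter, and the floor left its leaf and root tip values without spread.

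Every one of these tissue differences was free of overlap between control arrays. The share of all probe sets without overlap between tissues was not counted. Without WT 3 and VC 4 the fruit-minus-leaf differences were 2.20 for SPS, 2.37 for sus3, -2.26 for hxk1 and 4.54 for GolS-1. The fruit-minus-root-tip differences were then 3.48, -0.83, -3.50 and 4.54 for the same genes in that order. Such differences were frequent on the array: 66.9% of the 7637 probe sets tested were called between fruit and leaf, 67.2% between fruit and root tips and 70.3% between leaf and root tips (limma on all 40 arrays, adjusted p under 0.05). Tissue goes with age and growth conditions in this design, and these cannot be told apart.

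**Figure D1:**
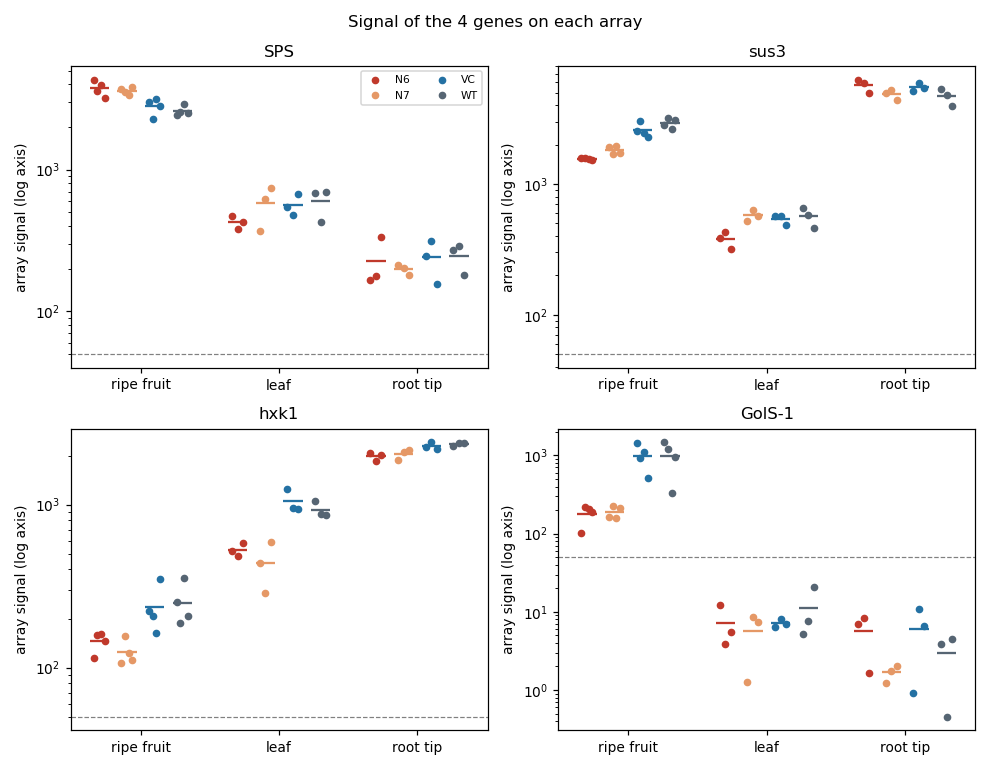
Array signal of SPS, sus3, hxk1 and GolS-1 on a log axis, 1 point per array, in ripe fruit, leaf and root tip of lines N6 and N7, vector control (VC) and wild type (WT), with bars at the group means and a dashed line at the floor of 50. SPS is highest in fruit, sus3 and hxk1 in root tip, and GolS-1 lies above the floor in fruit and under it on all leaf and root tip arrays.

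In ripe fruit the SPS signal was higher in both lines. N6 had 4317, 3584, 3979 and 3182 and N7 had 3693, 3523, 3336 and 3800, against 2988, 2292, 3175 and 2822 in VC and 2430, 2535, 2913 and 2525 in WT. The lowest line array, N6 4, lay just above the highest control array, VC 3, so the groups did not overlap. The lines averaged 3677 ± 361 and the controls 2710 ± 309 (SD, n = 8 each), a log2 difference of 0.44 ± 0.08 (SE) or 1.36-fold. Against VC alone it was 0.42 ± 0.12 in N6 and 0.36 ± 0.12 in N7. Without WT 3 and VC 4 these 3 differences were 0.47, 0.42 and 0.36.

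The sus3 signal was lower in fruit of both lines. It was 1591, 1569, 1552 and 1526 in N6 and 1906, 1695, 1945 and 1726 in N7, against 2538, 3055, 2456 and 2292 in VC and 2827, 3190, 2648 and 3080 in WT. All 8 line arrays lay under all 8 control arrays, and the arrays of N6 were the closest to each other. The lines averaged 1689 ± 162 and the controls 2761 ± 328 (n = 8 each), a log2 difference of -0.71 ± 0.07 or 1.63-fold lower. Against VC it was -0.72 ± 0.10 in N6 and -0.50 ± 0.10 in N7. Without WT 3 and VC 4 these 3 differences were -0.76, -0.78 and -0.56.

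Every N7 fruit array had more sus3 signal than every N6 array. The share of all probe sets that separated the lines in this way was not counted. The difference of N7 minus N6 was 0.22 ± 0.10 and did not pass the test (limma adjusted p = 0.291). With array weights, in a fit that stopped before convergence, it did (0.221, adjusted p = 0.0218).

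The hxk1 signal was also lower in fruit of the lines, by a margin that was narrow at the nearest arrays. N6 had 114.6, 158.7, 161.7 and 145.3 and N7 had 107.4, 157.2, 122.4 and 110.9. VC had 223.1, 206.4, 162.1 and 349.2 and WT had 253.9, 188.0, 352.7 and 207.3. The highest line array, N6 3, and the lowest control array, VC 3, were all but equal, and the highest control arrays were WT 3 and VC 4. Lines averaged 135 ± 23.3 and controls 243 ± 71.7 (n = 8 each), a log2 difference of -0.82 ± 0.18 or 1.76-fold lower. Without WT 3 and VC 4 the controls averaged 206.8 ± 31.1 (n = 6) and the difference was -0.62.

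Against VC alone hxk1 was at -0.65 ± 0.26 in N6 fruit and at -0.88 ± 0.26 in N7 fruit. Without VC 4 these were -0.44 and -0.67. The other hexokinase gene found by symbol on the array, Hxk2, had 102 to 192 in fruit of the lines and 84.6 to 254 in fruit of the controls. Its 2 highest fruit values were again those of VC 4 and WT 3.

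GolS-1 had the largest fruit difference of the 4 genes on the log2 scale. N6 had 103, 220, 208 and 189 and N7 had 162, 226, 158 and 214, against 1449, 932, 1092 and 509 in VC and 1472, 1212, 328 and 943 in WT. All line arrays lay under all control arrays, and the lowest controls were WT 3 and VC 4, the arrays with the highest hxk1 signal. Lines averaged 185 ± 41.9 and controls 992 ± 410 (n = 8 each), a log2 difference of -2.31 ± 0.29 or 4.97-fold lower. Against VC it was -2.43 ± 0.41 in N6 and -2.31 ± 0.41 in N7, and without WT 3 and VC 4 the lines differed from the controls by -2.69, N6 from VC by -2.72 and N7 from VC by -2.60.

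WT 3 and VC 4 also had the lowest green-cell sums among fruit controls, 2827 and 2797 against 3907 to 5401 on the others. Their 3'/5' log2 ratios, 2.67 and 2.96, were the lowest of the controls as well, against 3.53 to 4.52 on the others. The 8 line arrays had GolS-1 signals of 103 to 226 and 3'/5' ratios of 2.88 to 4.04. The part of the green-cell share and of RNA quality in the GolS-1 difference was not tested.

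**Figure D2:**
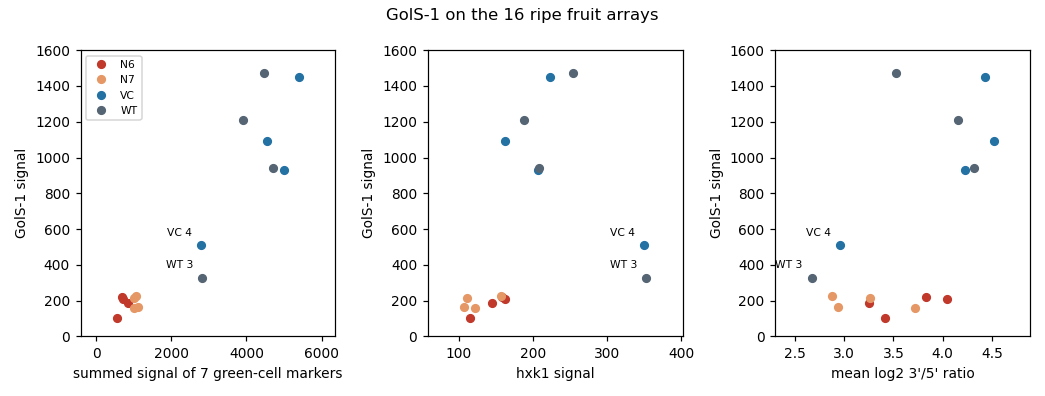
GolS-1 signal on the 16 ripe fruit arrays against the summed signal of 7 green-cell markers, against the hxk1 signal and against the mean log2 3'/5' ratio of control transcripts, 1 point per array of N6, N7, VC and WT. The 8 line arrays sit between 103 and 226, and the control arrays WT 3 (328) and VC 4 (509) lie between them and the other 6 controls (932 to 1472).

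Of the 4 genes 1 was higher and 3 were lower in fruit of the lines, and all 4 were without overlap between lines and controls. Over the 6208 probe sets tested in fruit, limma called 16.6% higher and 14.5% lower, and 7.65% had no overlap. These shares are given as the background only, because the fruit contrast took part in the choice of the members. N6 and N7 differed in 0 of the 4 genes by limma (1 at an unadjusted p under 0.05, sus3), where 2.9% of all probe sets were called. VC and WT differed in 0 of the 4 genes (0 at an unadjusted p under 0.05), where 0% of probe sets were called and 331 had an unadjusted p under 0.05.

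In leaf the hxk1 signal was lower in both lines. N6 had 522, 486 and 583 and N7 had 436, 289 and 587, against 1243, 955 and 942 in VC and 1053, 875 and 868 in WT. All 6 line arrays lay under all 6 control arrays, and N7 was the more variable line. Lines averaged 484 ± 112 and controls 989 ± 141 (n = 6 each), a log2 difference of -1.06 ± 0.16 or 2.09-fold lower. Against VC it was -0.97 ± 0.23 in N6 and -1.31 ± 0.23 in N7. In leaf the sum of 9 ripe-fruit markers also moved with the genotypes, at 544 to 860 in the lines and 363 to 499 in the controls, with 6 of the 9 under the floor on all line arrays and 6 on all control arrays, PG2 and RIN, which mark ripening, among both. The green-cell sum overlapped (49502 to 78028 in the lines and 44380 to 82054 in the controls), as did the 3'/5' log2 ratio (3.97 to 4.60 in the lines and 4.18 to 4.68 in the controls). The part of these in the leaf difference was not tested.

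The SPS signal overlapped between lines and controls in leaf. It was 471, 383 and 428 in N6 and 372, 621 and 740 in N7, against 548, 477 and 675 in VC and 688, 428 and 693 in WT. The lines averaged 503 ± 147 and the controls 585 ± 117 (n = 6 each), and the log2 difference was -0.24 ± 0.19. N6 was at -0.40 ± 0.26 against VC, with all arrays lower, a separation not counted over all probe sets. N7 was at -0.01 ± 0.26 against VC, a value whose sign turned with the scaling of the arrays.

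The sus3 signal separated the lines from each other in leaf more than from the controls. N6 had 389, 427 and 318 and N7 had 526, 628 and 574, against 572, 566 and 483 in VC and 655, 579 and 464 in WT. Every N6 array lay under every other leaf array, and N7 lay among the controls. Such separation of N6 was not counted over all probe sets. Over both lines the log2 difference was -0.24 ± 0.12, with -0.52 ± 0.17 for N6 and 0.09 ± 0.17 for N7 against VC.

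N7 exceeded N6 in leaf sus3 by 0.62 ± 0.17, which did not pass the test (limma adjusted p = 0.0653). It passed with each array scaled to the same median (0.71, adjusted p = 0.0372), with quantile normalization (0.72, adjusted p = 0.0324) and without WT 2 (0.62, adjusted p = 0.0468). GolS-1 was not tested in leaf, since its signal was 1.28 to 12.1 in the lines and 5.28 to 21.0 in the controls.

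Of the 3 genes tested in leaf, hxk1 was the 1 with no overlap between lines and controls. Among 6535 probe sets limma called 9.78% higher and 8.58% lower, and 7.07% had no overlap, again as background only. N6 and N7 differed in 0 of the 3 genes by limma (1 at an unadjusted p under 0.05, sus3), against 4.48% of all probe sets called. VC and WT differed in 0 of the 3 (0 at an unadjusted p under 0.05), against 0.0153% of all.

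In root tips the comparison of lines with controls took no part in the choice and was tested. None of the 3 measurable genes passed the test by limma (0 of 3, with 1 at an unadjusted p under 0.05). The background there was low, with 0.108% of 6495 probe sets called higher and 0.4% called lower. The hxk1 signal was 2061, 1856 and 2019 in N6 and 1882, 2109 and 2149 in N7, against 2246, 2413 and 2199 in VC and 2285, 2375 and 2391 in WT. All line arrays lay under all control arrays, and 1.91% of probe sets tested in root tips had no overlap in either direction. Lines averaged 2013 ± 120 and controls 2318 ± 86.9 (n = 6 each), a log2 difference of -0.21 ± 0.07 or 1.15-fold (adjusted p = 0.267). With array weights, in a fit that stopped before convergence, the adjusted p was 0.00983. The 7 root markers summed to 10750 to 14063 in root tips of the lines and 12195 to 17341 in those of the controls, which overlapped, and their part in the difference was not tested.

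Root tip sus3 had 6294, 5896 and 4967 in N6 and 4941, 5285 and 4405 in N7, against 5176, 5973 and 5398 in VC and 5324, 4767 and 3961 in WT. The genotypes overlapped, and the difference of lines minus controls was 0.06 ± 0.09 (adjusted p = 0.837), with a sign that turned under quantile normalization. SPS had 166, 179 and 333 in N6 and 212, 202 and 182 in N7, against 248, 316 and 157 in VC and 270, 291 and 180 in WT. These overlapped too, at -0.20 ± 0.23 (adjusted p = 0.744; 0.0441 with array weights). GolS-1 was not tested, with 1.22 to 8.39 in the lines and 0.456 to 10.8 in the controls.

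N6 and N7 differed in 0 of the 3 genes in root tips, and VC and WT in 0 of the 3, in both cases with 0 at an unadjusted p under 0.05 (limma). Over all probe sets the shares called were 0.0462% between the lines and 0% between the controls, with 60 at an unadjusted p under 0.05 for VC against WT.

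Side by side, hxk1 had a log2 difference of lines minus controls of -0.82 in fruit, -1.06 in leaf and -0.21 in root tips. For sus3 the values were -0.71, -0.24 and 0.06, and for SPS 0.44, -0.24 and -0.20, in the same order of tissues. Differences between tissues were not tested for these effects, because the fruit or leaf value took part in the choice of the members.

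**Figure D3:**
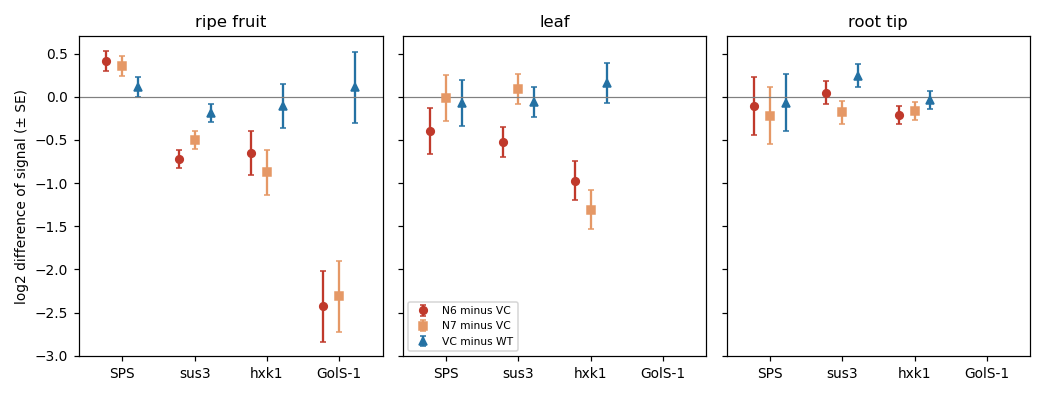
Log2 differences of signal with their SE for SPS, sus3, hxk1 and GolS-1 in ripe fruit, leaf and root tip, for N6 minus VC (circles), N7 minus VC (squares) and VC minus WT (triangles). N6 and N7 share the VC arrays. GolS-1, at -2.43 and -2.31, is the lowest in fruit, hxk1 is lowest in leaf (-0.97 and -1.31), and GolS-1 has no value in leaf or root tip.

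Around the 4 genes, 25 further genes of sucrose, hexose, galactinol, starch and myo-inositol metabolism and sugar transport were found on the array by symbol. In fruit 16 of them were tested. Of these, 2 rose and 5 fell in the lines (limma), against 16.6% and 14.5% of all probe sets, with a median log2 difference of -0.297 against 0.043 over all probe sets. The 5 include lin5, whose fall is not read as a test for the reason given below. The 2 that rose were CIF1, an inhibitor of invertase (2.68 ± 0.14, adjusted p = 9.84e-10), and IMP1, a phosphatase that frees myo-inositol from its phosphate (0.46 ± 0.15, adjusted p = 0.0301). The call of IMP1 was lost without any 1 of 6 arrays and when the 3'/5' ratio was a covariate (adjusted p = 0.0531).

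The gene nearest to GolS-1 in this list was AGAL, an alpha-galactosidase, of a class of enzymes that release galactose from raffinose sugars among other substrates. Its fruit signal had a lowest, median and highest value of 89.3, 225 and 380 in the lines, against 551, 871 and 1253 in the controls. The groups did not overlap, and AGAL fell 4.12-fold (-2.04 ± 0.29, adjusted p = 7.37e-05), and was at -1.88 in N6 and -2.34 in N7 against VC. In leaf AGAL was at -0.11 ± 0.25 (adjusted p = 0.801) and in root tips at -0.18 ± 0.19 (adjusted p = 0.718).

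The sucrose transporter gene SUT4 fell 2.05-fold in fruit without overlap, with 129 to 245 in the lines and 275 to 554 in the controls (-1.03 ± 0.17, adjusted p = 2.53e-04). FRK1, a fructokinase, which phosphorylates the fructose that sucrose synthase sets free, fell (-0.58 ± 0.12, adjusted p = 0.00118). Its arrays overlapped, with 300 to 508 in the lines and 412 to 644 in the controls. Against VC, FRK1 was at -0.83 in N6 (adjusted p = 0.00233) and at -0.31 in N7 (adjusted p = 0.196), and the lines did not differ from each other past the threshold (0.52 ± 0.16, adjusted p = 0.11).

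The cell wall invertase gene lin5 was under the floor on all 8 line arrays and at 177 to 412 in the controls, at least 5.61-fold lower. It is in the count of genes that fell, but no p is given. The controls alone carried lin5 past the filter, and the floor left its line values without spread. TMT fell as well (-1.38 ± 0.19, adjusted p = 4.79e-05), but the annotation gives only its symbol, which is in use for a sugar transporter and for a tocopherol methyltransferase. Without TMT 4 of 15 genes fell and 2 rose, with lin5 still among the 4. Among genes that did not pass the test in fruit were the fructokinases FRK2 (-0.30) and FRK3 (-0.29), Hxk2 (0.05), the vacuolar invertase AI (-0.01), the sucrose transporter SUT2 (-0.30) and the ADP-glucose pyrophosphorylase subunit AGP-S2 (0.14). Without WT 3 and VC 4 the counts were 2 higher and 7 lower, with CIF1 at 2.84, IMP1 at 0.51, AGAL at -2.03, SUT4 at -1.14, FRK1 at -0.71, lin5 at -2.67 and TMT at -1.50. The 7 include genes that were not called with all arrays and are not named here. The genes listed above as not passing are therefore so for the fit of all arrays only.

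In leaf 21 genes of the list were tested, of which 1 rose and 3 fell, against 9.78% and 8.58% of all probe sets, with a median of -0.087 against 0.012 over all probe sets. CIF1 rose (2.47 ± 0.19, adjusted p = 2.27e-05). AGP-S2, of starch synthesis, fell 1.61-fold, with 272 to 518 in the lines and 520 to 668 in the controls (-0.69 ± 0.12, adjusted p = 0.00257). LIN8, a cell wall invertase, fell over both lines together (-0.97 ± 0.22, adjusted p = 0.00939). Its lines differed from each other, with N7 above N6 by 1.29 ± 0.31 (adjusted p = 0.0376), and values against VC of -1.56 in N6 and -0.27 in N7.

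The third gene that fell in leaf was Hxk2, with 205 to 284 in the lines and 303 to 382 in the controls. Its arrays did not overlap, and the decrease was 1.32-fold (-0.40 ± 0.12, adjusted p = 0.0363). The call was lost without any 1 of 9 of the 12 leaf arrays and when the 3'/5' ratio was a covariate (adjusted p = 0.0697). In leaf hxk1 was without overlap too, but it was chosen for that difference, so its value adds nothing to that of Hxk2. Of all probe sets tested in leaf, 7.07% had no overlap between lines and controls. In fruit Hxk2 overlapped between the groups. Among leaf genes that did not pass the test were FRK1 (-0.11), FRK2 (-0.29), FRK3 (0.24), SUT4 (-0.03) and the hexose transporter HT2 (-0.95, adjusted p = 0.0651).

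In root tips 20 genes were tested and 0 passed in either direction by limma. The nearest were CIF1 (1.55 ± 0.33, adjusted p = 0.0629), IMP1 (-0.51 ± 0.13, adjusted p = 0.0956) and SUT4 (-0.70 ± 0.18, adjusted p = 0.111). CIF1 had 671 to 814 in the lines, 113 to 287 in WT and 187, 223 and 784 in VC. The highest VC array alone made the groups overlap. The median was -0.176 against -0.021 over all probe sets.

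**Figure D4:**
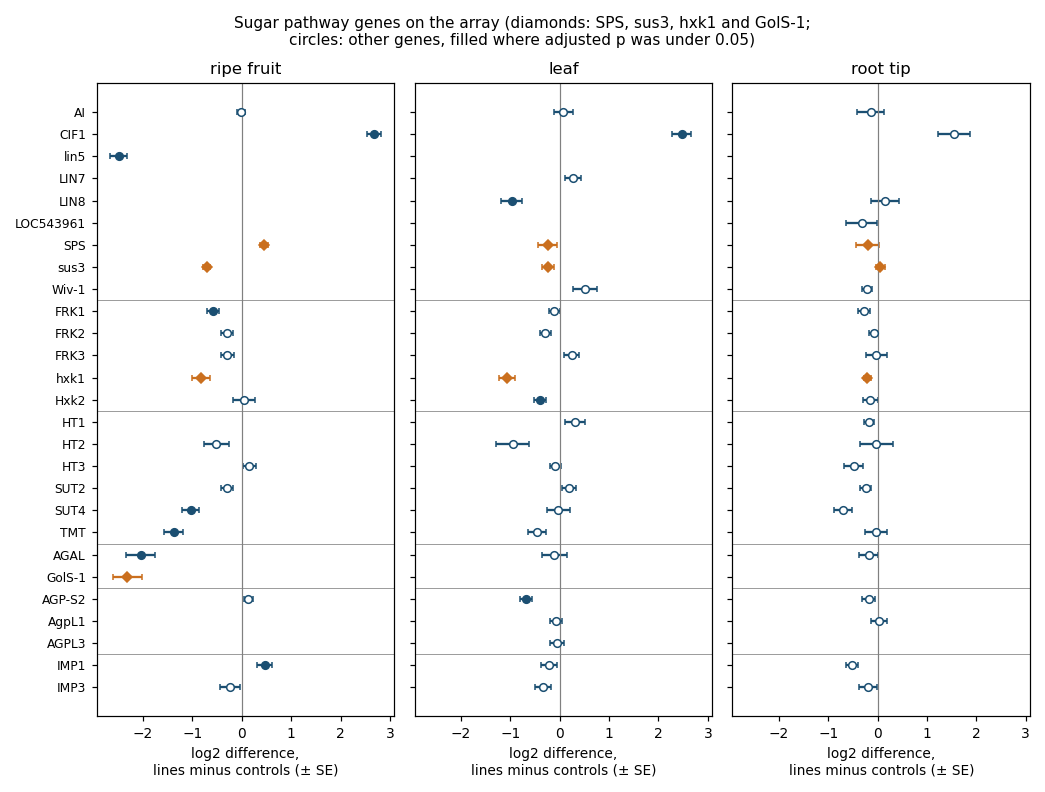
Log2 difference of lines minus controls with its SE for the genes of the sugar list in ripe fruit, leaf and root tip, grouped into sucrose, hexose phosphorylation, transport, galactinol and raffinose, starch, and myo-inositol. Diamonds are SPS, sus3, hxk1 and GolS-1, and circles are other genes, filled at an adjusted p under 0.05. The filled fruit circle of lin5 is not read as a test. In fruit AGAL (-2.04) lies beside GolS-1 (-2.31), and no root tip circle is filled.

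The genes whose pattern was most like each member were ranked by Pearson's r over the 12 means of tissue and genotype among 575 other symbol genes, as a description with no test, since the 12 points share tissues and arrays. For SPS they were NCED1 of abscisic acid synthesis (0.982), the phytoene synthase Psy1 (0.982) and the translation factor eIF-5A1 (0.976). Psy1 also had a fruit signal far above that of leaf and root tips, with medians of 7240, 128 and 22.8 in the controls of these tissues. For sus3 they were the mitochondrial import gene TIM10 (0.972), AN35 (0.970) and the uncoupling protein gene UCP (0.965).

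For hxk1 the nearest were the glutathione synthetase GSH2 (0.980), the coatomer gene copz2 (0.978) and twi1 (0.974). For GolS-1 they were HSP17.4 (0.986), pip1 (0.976) and ER-SHSP (0.973), of which HSP17.4 and ER-SHSP are small heat shock proteins. All leaf and root tip means of GolS-1 were at the floor. A gene measurable in fruit alone therefore ranks high for it, whatever its difference between lines and controls. In fruit HSP17.4 had 107 to 500 in the lines and 1040 to 3350 in the controls. ER-SHSP had 330 to 2380 and 2510 to 4540 in the same order. Neither had an overlap, as was so for 7.65% of all probe sets tested in fruit. On leaf arrays neither exceeded 25.1. The fruit signal of pip1 overlapped, with 46.8 to 140 in the lines and 46.8 to 227 in the controls.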

How the data were processed

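The deposited table holds linear intensity, 1 signal per probe set and array, made with GCOS per the submitters' processing notes. Its version is not given in the sources used here, and labelling was the two-cycle biotin assay per the labels' protocols. The deposited signals had equal trimmed means of 500, so they carried a scaling between arrays, which was kept. Another scaling would shift all genes of an array together, and the number of arrays limits the precision.

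Signals under a floor of 50 were set to it, and log2 was then taken of the deposited intensities. A probe set was tested if it exceeded the floor on 4 fruit, 3 leaf or 3 root tip arrays. All 4 genes passed in fruit and 3 of 4 (not GolS-1) in leaf and root tips. Control and reporter probe sets were left out. Limma 3.58.1 in R 4.3.3 was fitted per tissue with a mean per genotype and a variance trend, and over all 40 arrays for tissue differences. P-values are two-sided and Benjamini-Hochberg adjusted over all probe sets, with calls under 0.05. The code was tested on simulated data. The members, the sugar and marker lists and the alternative settings were chosen with earlier results of these data known. For SPS and sus3 in leaf and hxk1 in fruit the plan allowed a p, which is left out here, because the lines-against-controls contrasts of those tissues took part in the choice. Genes named beside the members are the called members of the sugar list and the 3 most alike symbol genes per member. Others were named after their values were seen. Names came from the platform annotation and, for 885 of 909 probe sets with a symbol, from a gene table of assembly SLM_r2.1. Alternatives were other floors, no filter, other scalings, array weights, an RNA quality covariate, other controls, a replicate block and leaving out arrays.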

Additional observations from a re-analysis of the deposited data

Results flagged for a closer look

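Reporter probe set A06498, which detects a sequence used in plant transformation and took no part in the comparisons, had a signal in fruit labelled N7 above that of every fruit control. Its lowest N7 array was at 237, against at most 24.5 in fruit labelled VC or WT. None of the 16 sets of 4 fruit arrays of a gene and genotype held an array that stood clear of the others by Dixon's test at 95%, WT 3 and VC 4 included, and no gene had all line arrays on one side of the control mean in 1 tissue and on the other side in another.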

How the results depend on the processing

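The tissue differences in controls kept their direction and their call in all 330 alternatives run. Those of GolS-1 are among them and are not read as a test, for the reason given above. The leaf differences of lines minus controls moved by less than the replicate spread in all 66. In fruit 111 of 112 did so, the exception being sus3 with N7 set against VC 1 to 3 alone (-0.557). The difference of GolS-1 ran between -2.55 and -2.19 with 1 fruit array left out. The replicate numbers did not pair the arrays (median correlation of deviations of same-numbered arrays 0.06 in fruit, -0.01 in leaf and 0.22 in root tips), and a fit with a replicate block turned no member's direction and changed no call of a member (fruit GolS-1 -2.31, leaf hxk1 -1.06), though it ended that of Hxk2 in leaf (adjusted p = 0.0627).

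Against VC, the SPS value of leaf N7 turned to 0.015 with median scaling and 0.0095 with quantile normalization, and ran from -0.223 to 0.273 with 1 array left out (positive without VC 3 or N7 1). Leaf sus3 in N7 turned to -0.0180 with array weights. In root tips sus3 of lines minus controls turned to -0.0375 with quantile normalization and -0.0656 with VC alone, and ran from -0.00153 to 0.105 with 1 array left out (negative without WT 3). Array weights, whose fits stopped before convergence, called root tip SPS (-0.439) and hxk1 (-0.227), and called 1 member between N7 and N6 and 2 between VC and WT in fruit, in place of 0. Between N7 and N6 in leaf 1 member was called in place of 0 with median scaling and 1 with quantile normalization, and 0 to 1 with 1 array left out. Fruit hxk1 of N7 against VC was at -1.23 when the 3'/5' ratio was a covariate. The cause of these changes was not tested.

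The counts of the sugar list were within 1.5 times the reported ones under each planned setting. Other settings for it were chosen after seeing the data. With 1 array left out 1 to 2 genes were higher and 5 to 6 lower in fruit, 1 to 2 higher and 2 to 6 lower in leaf (6 without N7 3, 2 higher without N6 2), and 0 to 1 higher (1 without VC 2) and 0 to 2 lower (2 without N6 3) in root tips. With the 3'/5' covariate 1 was higher and 8 lower in fruit, and 1 higher and 1 lower in root tips. With array weights 4 were higher in fruit, 2 higher and 6 lower in leaf, and 1 higher and 8 lower in root tips. Of 255 values of single called genes, 18 lost the call, all of them of IMP1 in fruit or Hxk2 in leaf. IMP1 lost it without WT 2, WT 4, VC 3, N6 1, N6 2 or N7 2 (adjusted p = 0.0516 to 0.0669), and Hxk2 kept it only without WT 2, N6 3 or N7 3 among the arrays left out.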
